A study of Arabidopsis thaliana with 12 samples.

Results

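The lipid transfer and elongase families are described here through 3 Arabidopsis thaliana genes: AT5G13900 and AT5G48490, of the lipid transfer protein family, and HOS3-1 (locus AT4G36830), which resembles a fatty acid elongase. The genes were picked because their transcripts lay much lower after ethylene, and each is read by 1 of the 22746 probe sets on the array. They are 3 of the 13286 genes that could be matched to RefSeq's TAIR10.1 gene table from the 13513 probe sets with exactly 1 gene. Transcripts of dark-grown whole seedlings were measured on 12 single-colour oligonucleotide arrays, in 6 groups of 2. The 3 genotypes, all of the Columbia accession, were wild type (Col-0), the ethylene-insensitive mutant ein2-5 and ein5-1, a mutant of an exoribonuclease, with 1 allele of each mutated gene. Each was kept in hydrocarbon-free air, or in air and then in 10 ppm ethylene for 4 h. On the seedlings themselves the labels differ. The series text and ein2 air replicate 1 have them at 3 days and 24 °C, and the texts of the other 11 samples at 5 days and 25 °C. Those 11 texts all mention ethylene, also for the air samples among them, so groups were taken from the titles. The extraction text names mature leaves, and the source is given as seedling.

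Lipid transfer proteins are small, cysteine-rich secreted proteins that bind lipids in a hydrophobic pocket, and several plant members are linked to the building of the cuticle or to defence signalling. AT5G48490 lies next to DIR1, a lipid transfer protein gene known from systemic acquired resistance, on its chromosome. Elongases extend fatty acyl chains by adding carbon units from malonyl-CoA at the endoplasmic reticulum, and the very long chains they make go into waxes, seed oils and sphingolipids. The ELO family, to which HOS3-1 is similar, makes such chains in yeast, and plants use a separate family of condensing enzymes, the ketoacyl-CoA synthases, for most wax precursors. Ethylene shortens and thickens the hypocotyl of dark-grown seedlings and inhibits their root growth, and EIN2 carries its signal from the endoplasmic reticulum to the nucleus.

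Levels are given as scaled intensities, which are linear signals brought to a common array median. Changes are on the scale of log2(level + 16), with the standard error of a limma fit to all arrays. A level is followed by its SD over 2 arrays. Where arrays of 2 groups are said to overlap or not, this is a description only. With 2 arrays a group, separation is common by chance, and the share of all probe sets showing it is not given here. A feature was called at a Benjamini-Hochberg adjusted p under 0.05. Since the 3 genes were chosen by their falls on ethylene, their values in wild type and ein5 are a description, with no test. The genotype behind the choice was not recorded. Wild type and ein5 were both treated as used, and only the response within ein2 was tested. If ein2 entered the choice as well, its values are also only a description. Array medians before scaling were 922 to 1039. Arrays of the same mutant group had median log2 differences of 0.19 to 0.21. Wild type was noisier, with 0.25 in air and 0.32 in ethylene, so its levels are less precise. The standard errors pool the spread of all 6 groups, so they do not show this difference between genotypes.

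AT5G13900, a lipid transfer family gene, was at a high, even level in air. It was read at 4776 and 4006 on the wild-type arrays, at 4188 and 4194 on those of ein5, and at 4385 and 4415 on those of ein2. All mutant arrays in air lay within the range of the wild-type pair, and ein5 and ein2 in air differed from wild type in air by -0.06 ± 0.14 and 0.01 ± 0.14. After ethylene the gene was read at 463.1 and 369.9 in wild type, the lowest of all groups. It was read at 1754 and 2155 in ein5 and at 4508 and 4799 in ein2. The ethylene arrays thus separated completely by genotype, with ein5 in between. The group mean went from 4391 ± 545 to 417 ± 65.9 in wild type (n = 2), which is 10.5-fold lower and a log2 change of -3.35 ± 0.14. In ein5 it went from 4191 ± 4.22 to 1955 ± 284 (n = 2), 2.14-fold lower, a change of -1.10 ± 0.14. The change in ein5 was 32.9% of that in wild type on the log2 scale, a difference of 2.25 ± 0.20 between the responses. Among all probe sets the wild-type change ranked 4 from the largest fall, and that of ein5 ranked 685. In bulk seedlings, fewer cells of a type and less RNA per cell cannot be told apart.

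AT5G48490, the other lipid transfer family gene, was the only one of the 3 with a deeper fall in ein5 than in wild type. Its air levels already differed by genotype: 1397 and 1464 in wild type, 1877 and 1969 in ein2, and 2401 and 2729 in ein5. No array of one genotype overlapped another in air, and ein5 stood 0.83 ± 0.18 and ein2 0.42 ± 0.18 above wild type. After ethylene the levels were 584.8 and 422.3 in wild type, 530.1 and 531.6 in ein5, and 1124 and 1240 in ein2. Wild type and ein5 overlapped after ethylene and differed by 0.09 ± 0.18, or by -0.14 without wild-type ethylene replicate 2 and 0.32 without replicate 1. The deeper change in ein5 therefore came with a higher level in air and a like level in ethylene. The mean went from 2565 ± 232 to 531 ± 1.08 in ein5 (n = 2), 4.83-fold lower and a change of -2.24 ± 0.18. In wild type it went from 1430 ± 47.0 to 504 ± 115 (n = 2), 2.84-fold lower and a change of -1.49 ± 0.18. The response of ein5 minus that of wild type was -0.74 ± 0.26, and without wild-type ethylene replicate 1 or 2 it was -0.51 or -0.97. The change ranked 30 from the largest fall in ein5 and 405 in wild type.

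HOS3-1, the elongase-like gene, had lower levels and more scatter than AT5G13900. In air it was read at 1183 and 897.4 in wild type, 615.8 and 594.8 in ein5, and 537.5 and 509.3 in ein2. Wild type was thus the highest group in air, above ein5 and ein2, whose differences from it were -0.75 ± 0.37 and -0.96 ± 0.37. After ethylene it was read at 140.1 and 44.1 in wild type, 462.6 and 356.6 in ein5, and 911.9 and 914.0 in ein2. The order of genotypes in ethylene was thus the reverse of that in air, with wild type highest in air and lowest in ethylene. The wild-type mean went from 1040.0 ± 202 to 92.1 ± 67.9 (n = 2), which is 11.3-fold lower and a change of -3.43 ± 0.37. Both wild-type ethylene levels were low, under 160, and differed 3.18-fold from each other, so the fold, the share and the rank given for wild type are imprecise. The change was -4.12 without replicate 1 and -2.75 without replicate 2. In ein5 the mean went from 605 ± 14.8 to 410 ± 74.9 (n = 2), a change of -0.56 ± 0.37, or 16.2% of the wild-type change. The response of ein5 minus that of wild type was 2.88 ± 0.53, and it was 3.57 and 2.19 without wild-type ethylene replicates 1 and 2. In rank from the largest fall HOS3-1 was at 3 in wild type, at 2495 in ein5 and at 21389 of 22746 in ein2.

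**Figure D1:**
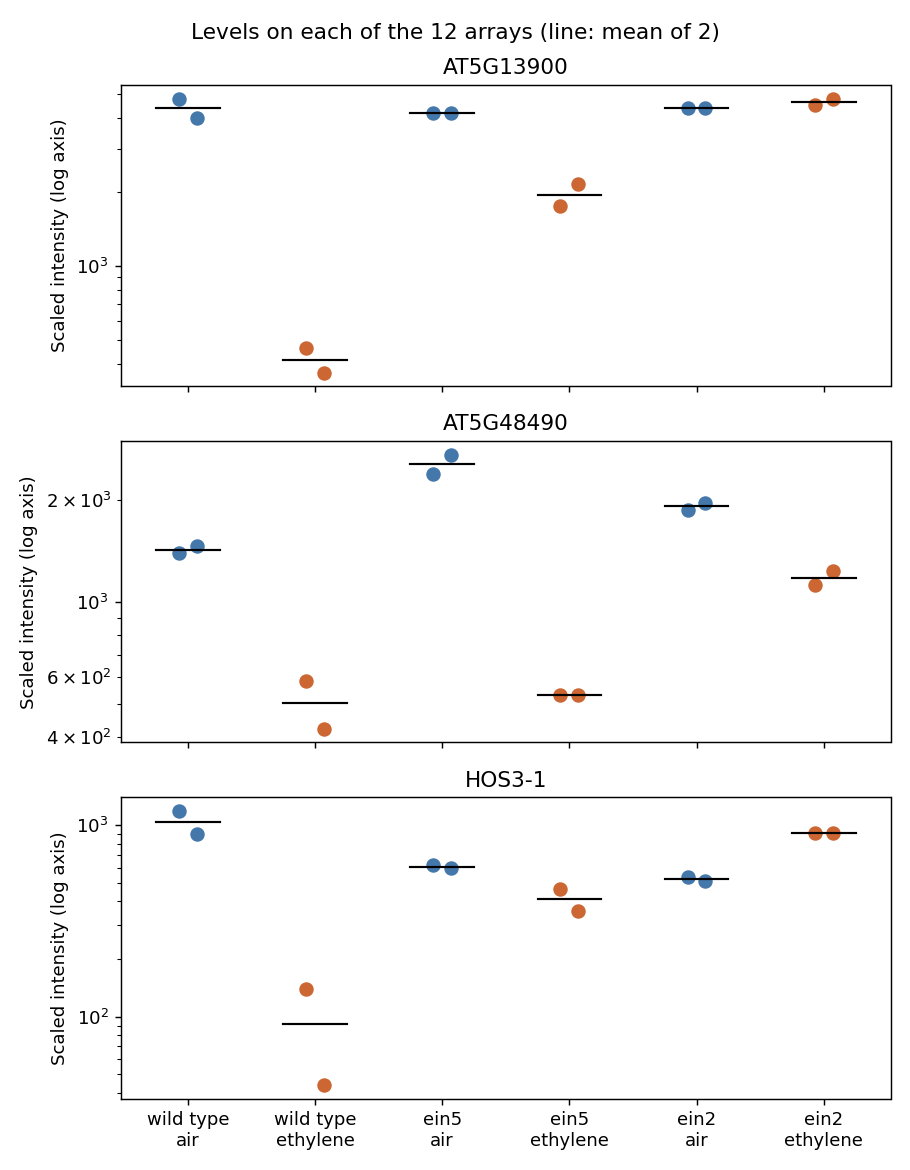
Scaled intensity on a logarithmic axis of AT5G13900, AT5G48490 and HOS3-1 on each of the 12 arrays, blue for air and orange for ethylene, with the mean of 2 arrays as a line. AT5G13900 is low in wild-type ethylene (463.1 and 369.9) and intermediate in ein5 ethylene (1754 and 2155), AT5G48490 overlaps between wild type and ein5 after ethylene, and HOS3-1 is higher in ein2 after ethylene (911.9 and 914.0) than in ein2 air.

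Of the responses, only that of ein2 was tested. Whether it also entered the choice of the genes was not recorded, so its p-values may not be independent of that choice. By its text, ein2 air replicate 1 was at 3 days and 24 °C, and the other ein2 arrays at 5 days and 25 °C. If that text holds, gas is partly confounded with age and temperature in ein2. None of the 3 genes was called in ein2 by limma, and 1 had an unadjusted p under 0.05. Of all 22746 probe sets, 0.514% were called in ein2, 0.475% as higher and 0.0396% as lower. AT5G48490 was lower on ethylene in ein2 as well, with a mean of 1923 ± 65.1 in air and 1182 ± 82.1 in ethylene (n = 2). Its change was -0.70 ± 0.18 with a 95% interval of -1.09 to -0.31 and limma adjusted p = 0.149. The adjusted p was 0.0457 with array weights and 0.0358 when only the ein2 arrays were fitted. HOS3-1 went the other way, from 523 ± 20.0 to 913 ± 1.48 (n = 2), 1.74-fold higher. Its change of 0.78 ± 0.37 was not called (interval -0.02 to 1.59, limma adjusted p = 0.517). AT5G13900 lay at 4400 ± 20.8 in air and 4653 ± 206 in ethylene, a change of 0.08 ± 0.14 (interval -0.23 to 0.39, limma adjusted p = 0.915).

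**Figure D2:**
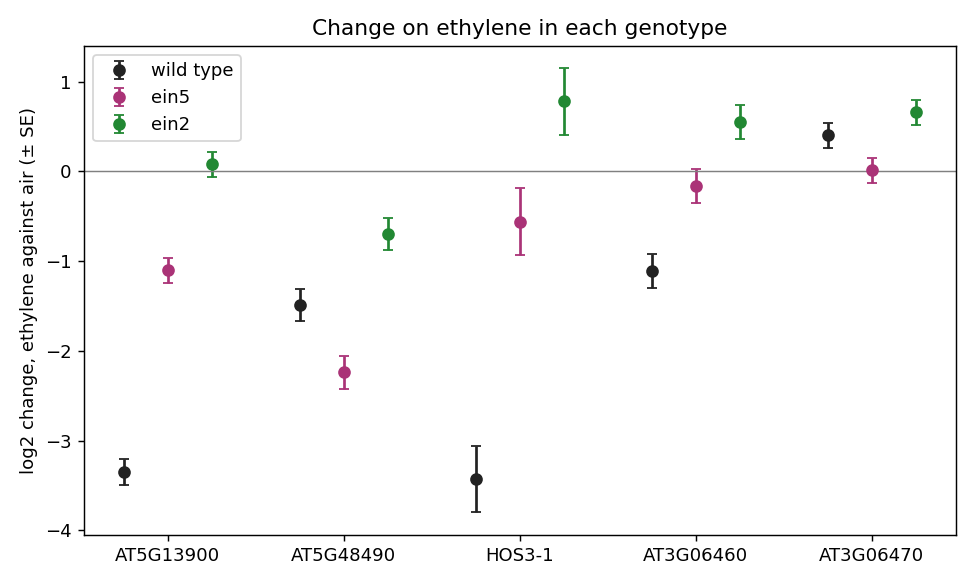
Log2 change of ethylene against air (vertical axis, ± standard error) in wild type, ein5 and ein2 for AT5G13900, AT5G48490, HOS3-1 and the elongase-like loci AT3G06460 and AT3G06470. The changes of AT5G13900 and HOS3-1 go from -3.35 and -3.43 in wild type to 0.08 and 0.78 in ein2, and AT5G48490 has a larger fall in ein5 (-2.24) than in wild type (-1.49).

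Sorted by level, the groups fell in a different order for each gene. For AT5G13900 the order was ein2 ethylene, ein2 air, wild-type air, ein5 air, ein5 ethylene and wild-type ethylene, and the arrays of ein2 air, wild-type air and ein5 air overlapped in turn. For AT5G48490 it was ein5 air, ein2 air, wild-type air, ein2 ethylene, ein5 ethylene and wild-type ethylene, and the arrays of the lowest pair overlapped. For HOS3-1 it was wild-type air, ein2 ethylene, ein5 air, ein2 air, ein5 ethylene and wild-type ethylene, and the arrays of the highest pair overlapped. The last gap was the widest for AT5G13900 and HOS3-1, where ein5 ethylene stood 4.69-fold and 4.45-fold above wild-type ethylene. For AT5G48490 the widest gap, 2.23-fold, lay between ein2 ethylene and ein5 ethylene. Wild-type ethylene was the lowest group for all 3 genes, which their choice favours.

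Over the 12 arrays, the log2 values of AT5G13900 correlated with those of HOS3-1 at a Pearson r of 0.937, and with those of AT5G48490 at 0.790. The r of AT5G48490 with HOS3-1 was 0.652. These values are descriptions, since all 3 genes share the arrays and were chosen for falls on the same gas. The profiles were also compared with those of 5902 probe sets of 1 gene and above-median signal. The nearest genes were picked over the same 12 arrays, so changes they share with a gene follow in part from the picking. Nearest to AT5G13900 were AT5G12420 (r = 0.990 over 12 arrays), AT3G50400 (0.984), AT4G25780 (0.977), AT4G36610 (0.973) and AT3G13980 (0.973). All 5 lay lower in wild-type ethylene than in air, by -2.00 to -2.56, and less so in ein5, by -0.61 to -0.93. Their changes in ein2 ran from -0.20 to 0.39. The locus nearest to AT5G13900, AT5G12420, had group means of 3520 and 683 in wild type, 3755 and 2097 in ein5, and 4056 and 3723 in ein2, in air and ethylene.

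Nearest to HOS3-1 were AT5G43150 (r = 0.956), AT1G64380 (0.954), AT3G16800 (0.949), SWEET17 (0.941), which encodes a vacuolar fructose transporter, and AT3G20015 (0.939). Of these, 4 had a positive change in ein2, as HOS3-1 did, which their picking over the same arrays favours. The largest was the 0.51 of AT1G64380, with group means of 1623 in air and 2327 in ethylene. Its means were 2784 and 533 in wild type and 2301 and 1515 in ein5. Nearest to AT5G48490 were AT4G33660 (r = 0.966), AT3G47295 (0.959), AT1G12845 (0.951), CCL (0.928), named CCR-like, and ANK1 (0.925), an ankyrin-like gene. Their changes were smaller than those of AT5G48490, at -0.39 to -0.64 (wild type) and -0.38 to -1.12 (ein5). Of the 5, AT3G47295 had the higher air level of ein5 most clearly, with a mean of 3616 in ein5 air, 2942 in ein2 air and 2418 in wild-type air. No gene was among the 5 nearest of more than 1 of the 3. With values as deposited, 3 of the 5 genes nearest to AT5G48490 and 4 of the 5 nearest to HOS3-1 remained, and 4 of 5 remained for HOS3-1 with an offset of 1 or 64.

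**Figure D3:**
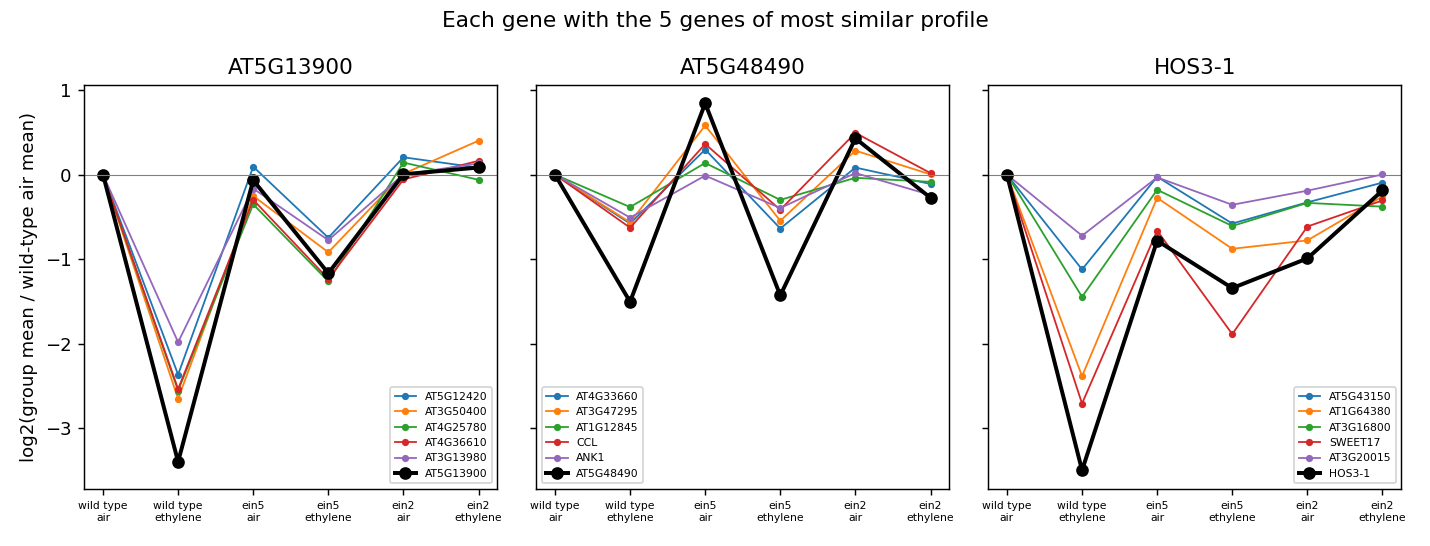
Group means relative to wild-type air, as log2 ratios on the vertical axis, for AT5G13900, AT5G48490 and HOS3-1 (thick black lines) and the 5 genes with the most similar profile over 12 arrays (coloured lines). The genes near AT5G13900 and HOS3-1 share the low point in wild-type ethylene, and those near AT5G48490 share low points in wild type and ein5 after ethylene, with smaller changes.

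The other genes of fatty acid elongation were followed in a list of 28 loci, of which only 2 were named here, both elongase-like. The locus AT3G06460 was read at 2105 and 2567 in wild-type air and at 1157 and 980.1 in wild-type ethylene. It fell by 1.11 ± 0.19 (limma adjusted p = 0.00131), in a comparison that called 10.1% of all probe sets, 6.28% as lower and 3.82% as higher. In ein5 it was read at 2469 and 2127 in air and 1904 and 2220 in ethylene (-0.16 ± 0.19, limma adjusted p = 0.835). In ein2 it was read at 1024 and 1467 in air and 1939 and 1675 in ethylene (0.55 ± 0.19, limma adjusted p = 0.292). Its response in ein2 differed from that in wild type by 1.66 ± 0.26 (limma adjusted p = 0.00284, or 0.0502 without a variance trend). As for HOS3-1, its lowest mean was that of wild-type ethylene, and in ein2 both ethylene arrays read above both air arrays. The neighbouring locus AT3G06470 did not share the fall. Its mean went from 1854 to 2453 on ethylene in wild type (0.40 ± 0.14, limma adjusted p = 0.0983). The means were 1499 in air and 1510 in ethylene for ein5 (0.01 ± 0.14, limma adjusted p = 0.994). In ein2 the means were 1497 and 2370 (0.66 ± 0.14, limma adjusted p = 0.0681). The ein2 change was called when only the ein2 arrays were fitted (0.0280), with array weights (0.0235), without dim probe sets (0.0481) and without wild-type ethylene replicate 1 (0.0492) or 2 (0.0495).

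The lipid transfer list drawn up at the start had 13 loci with 1 named, AT4G12490, which was not called on ethylene in any genotype (0.34 ± 0.35 in wild type, limma adjusted p = 0.661). A wider list of 90 loci of the family, made after the array annotation was seen, had 43 named, without AT5G13900 and AT5G48490. In wild type 8 of these fell and 1 rose, which is 20.9% called against 10.1% of all probe sets, and the list's median change was -0.23 against 0.02. A fit of the wild-type arrays alone called 2, both lower. The share of all probe sets called under this and the other alternatives is not given here. A changed count may therefore reflect more or fewer calls over the whole array. Without wild-type air replicate 1, 4 were called lower and 2 higher, and without a variance trend 5 and 1. AT2G48130 fell from 9127 to 3266 (-1.46 ± 0.16, limma adjusted p = 3.19e-05). In ein5 its change was -0.65 ± 0.16 (limma adjusted p = 0.0551). That change was called with values as deposited (0.0488), without dim probe sets (0.037), with array weights (0.00951) and in a fit of ein5 alone (0.0274). In ein2 its change was 0.36 ± 0.16 (limma adjusted p = 0.456, or 0.0498 in a fit of ein2 alone). AT1G05450, at a low level, fell from 281 to 52.6 (-2.22 ± 0.46, limma adjusted p = 0.0062), but was not called without wild-type air replicate 2 (0.0519) or in a fit of the wild-type arrays alone (0.0879). AT5G01870 fell from 7163 to 3788 (-0.95 ± 0.23, limma adjusted p = 0.0178), but was not called without wild-type air replicate 1 (0.169) or wild-type ethylene replicate 2 (0.166), nor without a variance trend (0.121). The gene that rose, AT4G22490, went from 11672 to 23049 (1.03 ± 0.18, limma adjusted p = 0.00192), but was not called in a fit of the wild-type arrays alone (0.0593), and its change was 0.66 without wild-type air replicate 2. The change of AT5G13900, from 4391 to 417, was larger on the log2 scale than that of any of these 8 genes, as its choice favours.

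In the mutants, 0 of the 43 genes were called on ethylene by limma, against 1.62% of all probe sets in ein5 (0.774% higher, 0.849% lower) and 0.514% in ein2. At an unadjusted limma p under 0.05, 9 were lower and 0 higher in ein5, and 0 were lower and 4 higher in ein2. The share of all probe sets at that threshold is not given here, so these counts are not read as a response of the family. A fit of the compared arrays alone called 1 in ein5 and 2 in ein2, and array weights gave 2 and 0. Here too, counts under alternatives have no share of all probe sets beside them. Without either wild-type air replicate or either wild-type ethylene replicate, 1 was called in ein5. The 8 genes that fell in wild type had a negative change in ein5 in 8 of 8 cases (median -0.41), beside 90.0% of the 1429 probe sets that fell in wild type. In ein2, 2 of the 8 were negative (25.0%, median 0.18), beside 55.7%. The responses of ein2 and wild type differed, with a positive sign, for 4 of the 43 genes (9.30%), beside 3.75% of all probe sets (2.80% positive, 0.950% negative). These were AT2G48130 (1.82 ± 0.22), AT4G22460 (1.06 ± 0.20), AT3G22620 (0.99 ± 0.22) and AT1G05450 (2.56 ± 0.65), of which AT4G22460 and AT3G22620 were named after their values were seen. AT4G22460 was already lower in ein2 than in wild type in air (-1.26 ± 0.14, limma adjusted p = 0.000195), with means of 5296 and 12749. In air the others differed by -0.24 ± 0.16 (AT2G48130), -0.01 ± 0.16 (AT3G22620) and -0.24 ± 0.46 (AT1G05450). The count was 1 without ein2 air replicate 1, ein2 ethylene replicate 2 or the variance trend. It was 2 without ein2 air replicate 2 or ein2 ethylene replicate 1, and in a fit of the wild-type and ein2 arrays alone. It was 6 without wild-type air replicate 2.

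**Figure D4:**
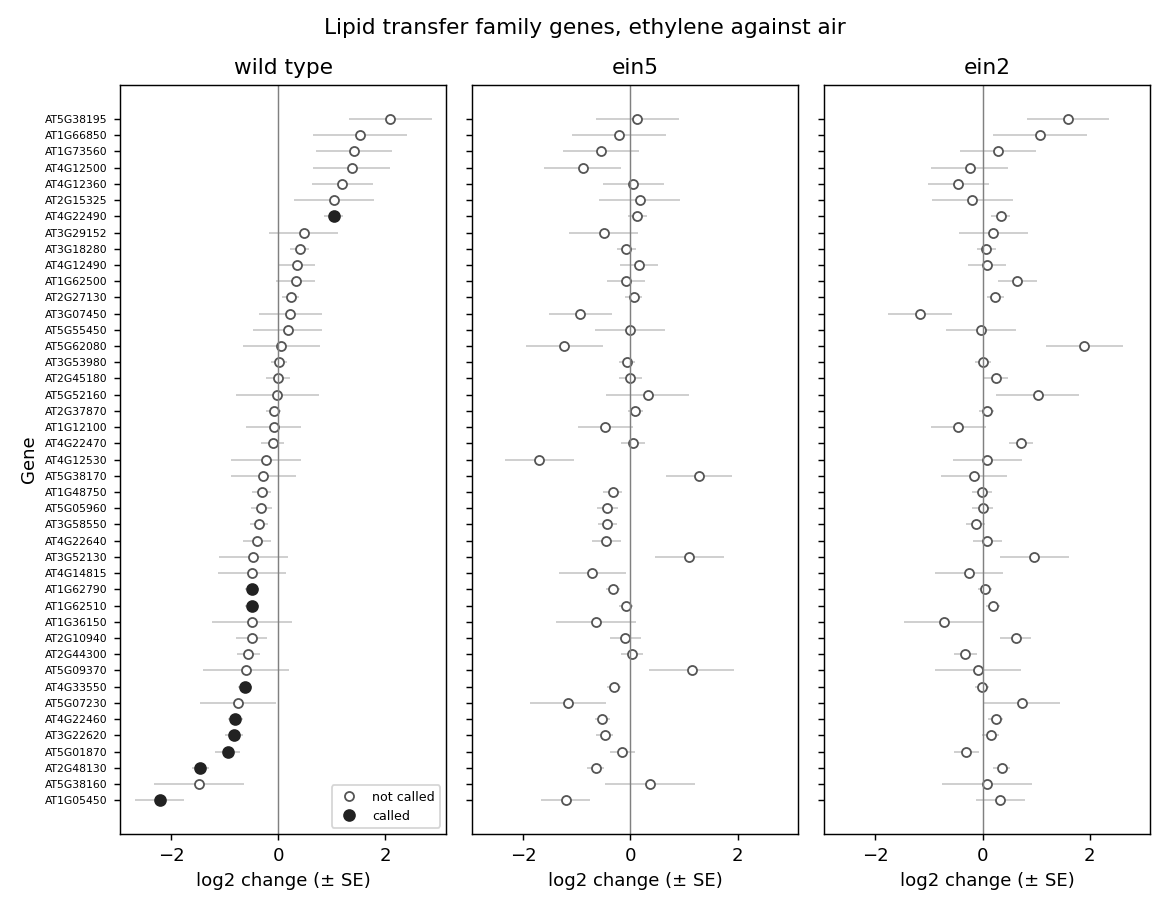
Log2 change of ethylene against air (horizontal axis, ± standard error) of 43 lipid transfer family genes in wild type, ein5 and ein2, sorted by the wild-type change; filled points were called at an adjusted p under 0.05. In wild type 8 genes fell and 1 rose, and 0 are called in either mutant.

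Further lists bear on the pathways in which the 3 genes are known or proposed to act. Of 33 loci of wax and cutin formation 4 were named, and in wild type 1 fell and 0 rose, beside 6.28% and 3.82% of all probe sets, with a median change of -0.48 beside 0.02. This was WSD1, which encodes a wax ester synthase. It was read at 1735 and 1626 in wild-type air and at 490.8 and 571.4 in wild-type ethylene (-1.64 ± 0.24, limma adjusted p = 0.000445). In ein5 it was read at 1147 and 909.4 in air and 407.7 and 658.1 in ethylene (-0.96 ± 0.24, limma adjusted p = 0.0671), and this change was called with array weights (0.0266), without dim probe sets (0.0331) and without ein5 ethylene replicate 2 (0.0495). In ein2 it was read at 942.7 and 794.7 in air and 755.1 and 829.5 in ethylene (-0.13 ± 0.24, limma adjusted p = 0.920). AT4G13840 of the same list went from 444 to 948 in wild type (1.04 ± 0.32, limma adjusted p = 0.057). With values as deposited, without dim probe sets, with a replicate block, and without either ein2 ethylene replicate or wild-type ethylene replicate 1, 1 gene of the list was called as a rise. Of 21 sphingolipid loci 6 were named, with 0 called by limma in wild type (median -0.04), ein5 (-0.06) and ein2 (0.07), where 1, 0 and 0 had an unadjusted p under 0.05. Over all probe sets the shares called were 10.1%, 1.62% and 0.514%. Among them LCB2, a subunit of serine palmitoyltransferase, lay at 7635 ± 1882 in wild-type air and 7617 ± 2979 in wild-type ethylene (n = 2), a wide spread. The largest change of the list in wild type was that of TSC10A, from 4746 to 3712 (-0.36 ± 0.12, limma adjusted p = 0.0766). Of 8 loci of the osmotic stress response 2 were named, COR47 and COR15A, with 0 called by limma and 0 at an unadjusted p under 0.05 in each genotype. The list of systemic acquired resistance had only AT4G12490 named, described above, and DIR1 was not among the genes named.

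Of the nearest named genes on either side of the 3 loci, only LEP and AT5G48500 are directly adjacent. In wild type 0 of the 6 were called lower, and LEP and AT5G48480 were called higher. Over all probe sets 6.28% were called lower and 3.82% higher, so 0 of 6 lower is near the share of all. After AT5G13900 comes LEP (LEAFY PETIOLE), a transcription factor gene, whose level rose in wild type from 2310.0 to 4448 (0.93 ± 0.15, limma adjusted p = 0.00102). AT5G13890, with 1 gene between, lay at 3267 and 3096 (-0.07 ± 0.14, limma adjusted p = 0.838). AT5G48480, separated from AT5G48490 by DIR1, rose from 3105 to 4389 (0.50 ± 0.14, limma adjusted p = 0.0309), but was not called without wild-type air replicate 2 (0.216) or wild-type ethylene replicate 2 (0.136), without a variance trend (0.123), with array weights (0.118) or in a fit of the wild-type arrays alone (0.174). AT5G48500 on its other side was at 2533 and 2444 (-0.06 ± 0.15, limma adjusted p = 0.886). The genes directly beside HOS3-1 were not read under a name. AT4G36790 and AT4G36860, with 6 and 2 genes between, had values of 0.18 ± 0.22 and 0.14 ± 0.13 in wild type (limma adjusted p = 0.719 and 0.612).

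Markers of tissues were few among the named genes. Of 7 root markers 2 were named, the root hair expansins EXPA7 (called in wild type, 0.81 ± 0.22, limma adjusted p = 0.0304, or 0.240 without wild-type air replicate 2 and 0.161 without wild-type ethylene replicate 2) and EXPA18, and their summed level was 3972 to 5418 in wild-type air and 5729 to 7273 in wild-type ethylene. It was 3026 to 3102 and 4057 to 4317 in ein5, and 2578 to 3126 and 3974 to 4225 in ein2, in air and ethylene. The summed level was thus higher after ethylene in each genotype, without overlap of the sums. EXPA18 was not called in wild type, ein5 or ein2 (limma adjusted p = 0.275, 0.318 and 0.365). Its wild-type arrays overlapped, at 3814 and 2911 in air and 3604 and 4772 in ethylene. EXPA7 was not called in ein5 or ein2 (limma adjusted p = 0.276 and 0.177). The part of tissue composition in the falls was not tested. Of 8 leaf markers 1 was named, RCA, at 14753 to 22069 in wild-type air and 19076 to 34231 in wild-type ethylene. Its change was 0.50 ± 0.23 (limma adjusted p = 0.207), and without wild-type ethylene replicate 1 it was 0.92 and called (0.00621), against 0.08 without replicate 2. Of 6 epidermis and 8 seed markers 0 were named.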

How the data were processed

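The deposited table holds 1 linear intensity per probe set and array. The authors quantified images with GeneChip Suite 3.2 and managed the data in GeneSpring 4.2, per the series text. That text describes a division by the array median, which the deposited intensities do not show: their medians were 922.25 to 1039.3, and their trimmed means of 2480.3 to 2487.2 are those of arrays already scaled to a common mean. Here the array medians, taken over values above 10, were brought to their mean (factors 0.949 to 1.07), and log2 was taken after adding 16. This offset understates changes of dim probe sets. Titles gave the groups and replicate numbers. Nothing in the labels speaks of separate cultures within a group, and the p-values therefore reflect the spread between these samples alone, possibly technical.

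Group means were fitted to all 12 arrays with limma 3.58.1 in R 4.3.3, with a trend of variance on intensity, 6 residual and 7.89 prior degrees of freedom, two-sided tests and Benjamini-Hochberg adjustment over all probe sets. The number of arrays limits the precision. The code was tested on simulated data.

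The 3 genes and all lists were chosen with earlier results of these data known. The text names up to 3 called rises and 3 called falls of a list, by their change in wild type, the elongase-like genes, the 5 best-correlated genes of each of the 3 and their nearest named neighbours. AT4G22460, AT3G22620, AT4G13840, LCB2, TSC10A, COR47 and COR15A were added after their values were seen. Gene names come from the platform annotation, in which 8730 probe sets are not listed and 503 have several genes, so each list was read only in part. Lists rest on general knowledge. Alternatives varied the scaling, the offset, dim probe sets (left out at a mean level over all arrays of 160 or less), the variance model, array weights, the arrays fitted, a replicate block and each array left out.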

Additional observations from a re-analysis of the deposited data

Results flagged for a closer look

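In AT5G13900 and HOS3-1 the order of the arrays by gas was opposite in wild type and ein2. Both wild-type ethylene arrays lay below both air arrays, and both ein2 ethylene arrays lay above both ein2 air arrays. The share of all probe sets with such an order is not given here. The ein2 changes were 0.08 ± 0.14 for AT5G13900 and 0.78 ± 0.37 for HOS3-1, and neither was called (limma adjusted p = 0.915 and 0.517). Their difference from wild type was not tested, since wild type was treated as used in the choice. The ethylene response of ein2 differed from that of wild type, by the limma test of the difference, in 4 of 43 lipid transfer genes, 1 of 2 elongation genes, 1 of 4 wax and cutin genes, 0 of 6 sphingolipid genes and 0 of 2 osmotic stress genes, all positive. Over all probe sets 3.75% were called in this test, 2.80% as positive. In air, the level of ein2 against wild type was -1.26 ± 0.14 for AT4G22460, -0.94 ± 0.24 for WSD1 and -0.91 ± 0.19 for AT3G06460. It was -0.24 ± 0.16 for AT2G48130, -0.24 ± 0.46 for AT1G05450 and -0.01 ± 0.16 for AT3G22620. The differences between the responses were 1.82 for AT2G48130 (adjusted p = 0.00049), 1.66 for AT3G06460 (adjusted p = 0.00284), 1.51 for WSD1 (adjusted p = 0.0242), 1.06 for AT4G22460 (adjusted p = 0.00901), 0.99 for AT3G22620 (adjusted p = 0.0263) and 2.56 for AT1G05450 (adjusted p = 0.0456). Of these, only AT2G48130 kept its call under all alternatives listed in the account of the processing.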

How the results depend on the processing

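The changes of the 3 genes kept their direction in wild type, ein5 and ein2 under all alternatives. That of HOS3-1 in wild type was -2.88 with an offset of 64. In ein2, AT5G48490 stayed at -0.70 and was called with array weights and in a fit of the ein2 arrays alone. With single arrays left out, AT5G13900 ran from -3.51 to -3.20 in wild type, -1.25 to -0.95 in ein5 and 0.03 to 0.12 in ein2, AT5G48490 from -1.72 to -1.27, -2.33 to -2.14 and -0.77 to -0.63, and HOS3-1 from -4.12 to -2.75, -0.74 to -0.38 and 0.75 to 0.82. Among elongation genes, 1 was called in ein2 without dim probe sets, with array weights and in the fit of ein2 alone, and 0 to 1 with arrays left out. Among wax and cutin genes, 2 were called in wild type with values as deposited and without dim probe sets, and 1 to 2 with arrays left out. In ein5, 1 was called without dim probe sets and with array weights, and 0 to 1 with arrays left out. Of the 43 lipid transfer genes, 2 were called in wild type in a fit of that genotype alone and 6 to 11 with arrays left out. In ein5, 1 was called with values as deposited, without dim probe sets and in a fit of ein5 alone, 2 with array weights, and 0 to 1 with arrays left out, and in ein2 2 were called in a fit of ein2 alone. Shares of all probe sets are given for the main fit only, so these counts have none beside them. The causes were not tested.

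Same-numbered arrays of different groups deviated from their group means with correlations of -0.044 to 0.073, so the numbers do not pair them. With a replicate block, 2 wax and cutin genes were called in wild type, 1 higher and 1 lower, in place of 1.

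Changes near 0 turned their sign, with no call on either side. AT4G36860 in ein5 was 0.01 with values as deposited and with quantile normalization. With arrays left out, AT4G36790 ran from -0.14 to 0.50 in wild type and -0.02 to 0.05 in ein5, AT4G36860 from -0.02 to 0.30 and -0.10 to 0.07, AT5G48500 from -0.22 to 0.11 and -0.08 to 0.16, AT5G13890 from -0.20 to 0.06 and -0.07 to 0.11, AT5G48480 in ein2 from -0.07 to 0.07, and in ein5 AT5G01870 from -0.38 to 0.09 and AT3G06470 from -0.09 to 0.11.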
